A study of Mus musculus with 16 samples.

Results

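Matricellular proteins are secreted proteins that bind collagen and other structural parts of the extracellular matrix, cell surface receptors and growth factors, and tune how cells attach to and signal from the matrix. Many of them are scarce in resting adult tissue and abundant in wounds and other remodelling tissue. Counts for 10 genes of this kind were examined among the 50600 gene identifiers of the table: the thrombospondins Thbs1, Thbs2, Thbs3 and Thbs4, periostin (Postn), the tenascins Tnc and Tnxb, Sparc, osteopontin (Spp1) and fibronectin (Fn1), whose protein is also a structural part of the matrix. Genes were found by matching each Ensembl identifier to its mouse symbol, and each of the 10 had the minimum of 10 counts over all libraries. The set was chosen partly because Thbs4 had been seen to differ strongly between the diets in these libraries, so the differences between diets are given here as a description, and no p-value is given for them or for Thbs4.

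The libraries came from footpad epidermal cells of C57/B6J female mice, with 4 biological replicates in each of 4 groups. The mice were fed from 5 wk of age for 3 wk on the purified AIN-93M diet, which is poor in ligands of the aryl hydrocarbon receptor (AhR-poor diet), or on that diet supplemented with indole-3-carbinol (I3C diet, 200 ppm), a plant compound that is converted to AhR ligands. Either 50 μl of PBS (vehicle) or PBS with 50 μg of papain, a plant protease used as a model allergen, was injected into the footpad, and cells were taken 6 hr later. Mice on the same diet were caged together, so diet and cage cannot be told apart. Each library is named below by the end of the code in its label, from T100 to T115.

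Library totals ranged from 22500821 to 51844375 counts, and levels are given as counts scaled to library size (CPM). Markers of keratinocytes were abundant in each library, with a summed level of 20714 to 36309 CPM for 6 basal markers and of 17455 to 41776 CPM for 6 suprabasal markers. Markers of other cells were also present and differed between the groups. The summed level of 10 dermal fibroblast markers, of which none was at 0 in any group, was 10.1 to 13.9 CPM with vehicle and 2.40 to 11.7 CPM with papain on the I3C diet, against 107.8 to 192 CPM and 286 to 718 CPM on the AhR-poor diet. For 8 endothelial markers, these ranges were 0.948 to 3.52 and 1.08 to 2.58 CPM on the I3C diet and 14.5 to 38.4 and 24.7 to 60.6 CPM on the AhR-poor diet. For 8 macrophage markers, they were 18.8 to 28.0 and 11.5 to 35.1 CPM against 50.3 to 61.3 and 82.5 to 251 CPM. For 7 neutrophil markers, they were 0.861 to 1.89 and 44.6 to 74.6 CPM against 4.02 to 5.06 and 80.8 to 550.1 CPM, with Ly6g at 0 in 3 of the 4 groups. The sums of 6 tendon markers were 6.15 to 10.4 and 1.09 to 1.46 CPM against 6.62 to 13.2 and 6.999 to 30.5 CPM, with Kera at 0 in both groups on the I3C diet. For 8 markers of pericytes and smooth muscle, the sums of the 16 libraries lay between 70.1 and 117 CPM. With papain, 5 of these 8 were higher on the AhR-poor diet by the thresholds used below, beside 7.15% of all genes. So were 10 of 10 fibroblast, 8 of 8 endothelial and 8 of 8 macrophage markers, but 0 of 6 basal and 0 of 6 suprabasal keratinocyte markers. These counts between diets are a description and no test. Sums on the I3C diet and on the AhR-poor diet were 3.69 to 6.33 and 7.18 to 32.1 CPM for skeletal muscle, 0.114 to 0.435 and 0.456 to 1.23 CPM for adipocytes, and 0.962 to 2.49 and 4.67 to 10.5 CPM for melanocytes, so that the diets did not overlap. They lay between 14.8 and 25.7 CPM for platelets (Treml1 and Gp9 at 0 in 3 of the 4 groups) and between 49.5 and 93.8 CPM for Schwann cells over the 16 libraries. In such bulk libraries, fewer cells of a type and less RNA per cell cannot be told apart.

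Within a group, the libraries that stood highest or lowest were shared by several of the 10 genes. Library T108 was the highest of the I3C vehicle group for 5 genes (Thbs1, Thbs2, Postn, Sparc and Tnxb), and T100 was the highest of the AhR-poor vehicle group for 7. In the AhR-poor papain group, T112 was the lowest for 7 genes (Thbs1, Thbs3, Thbs4, Sparc, Spp1, Fn1 and Tnxb) and T105 was the highest for 6. T112 was also the lowest and T105 the highest of that group in the fibroblast, macrophage and neutrophil sums, whose part in the gene levels was not tested. The spread among the 4 libraries of a group, as SD over mean CPM, was smallest for Sparc in the AhR-poor papain group, at 3.39%, and largest for Spp1 in the I3C papain group, at 139%.

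**Figure D1:**
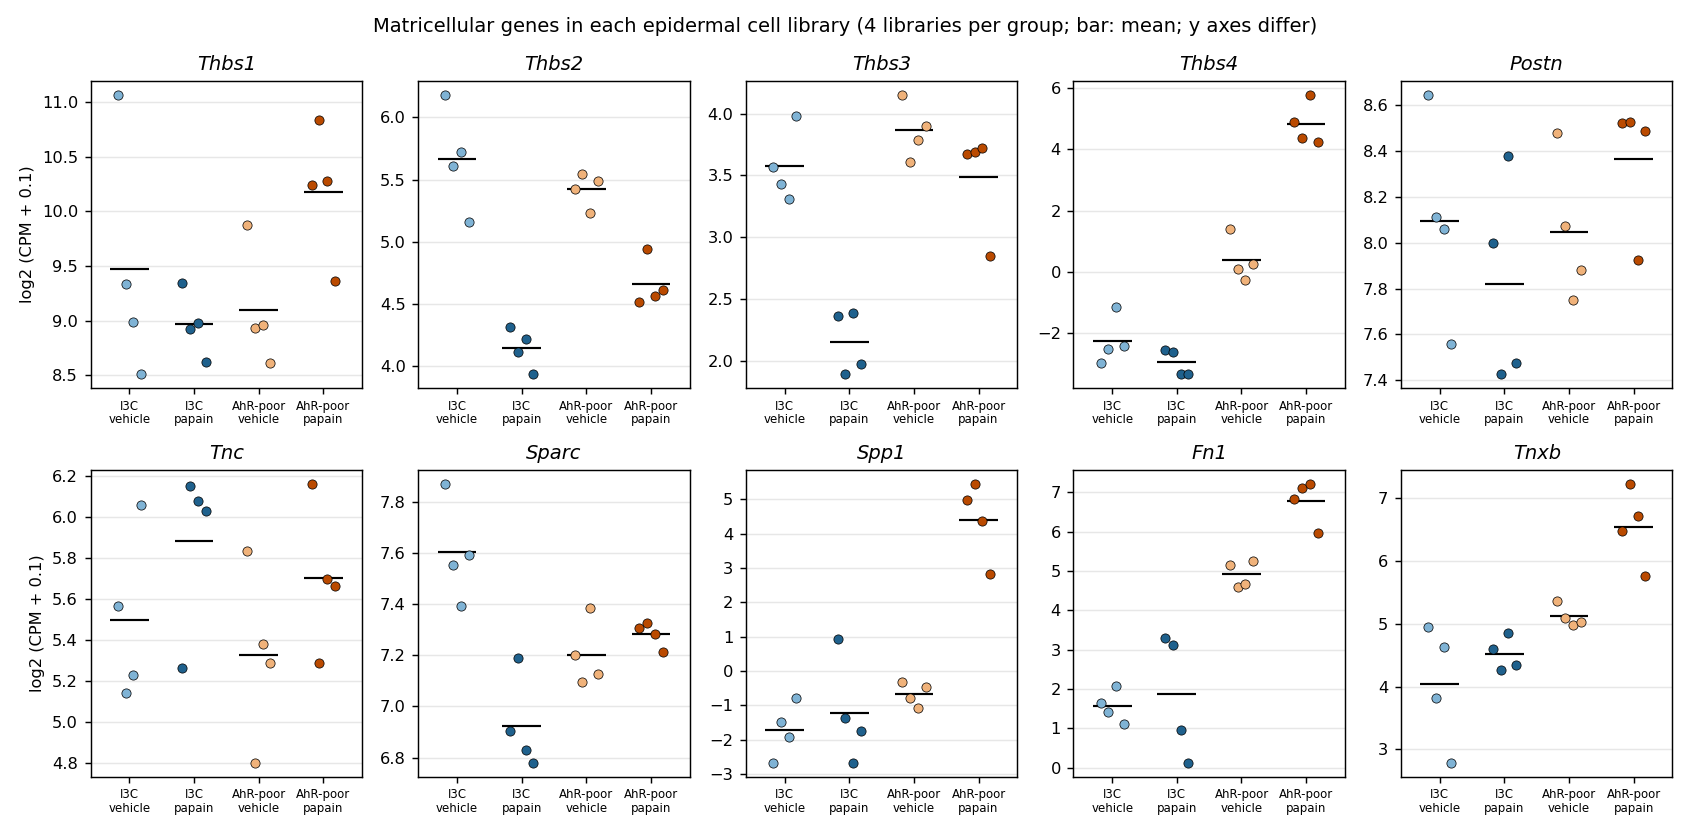
Level of each of the 10 genes in the 16 libraries as log2 (CPM + 0.1), with 1 point per library and a bar at the mean of the 4 log2 values of each diet and treatment; the y axis differs between panels. Thbs4, Spp1, Fn1 and Tnxb were highest in the 4 AhR-poor papain libraries, above each of the 12 others.

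To compare levels between genes, CPM were divided by the exon length of each gene in kb. Thbs1, whose protein inhibits vessel growth and can release TGF-β from its latent form, had the highest mean level per kb in each group, at 150.8 ± 136.2 CPM per kb (SD, n = 4) on the I3C diet with vehicle, 83.6 ± 17.4 with papain, 95.4 ± 40.2 on the AhR-poor diet with vehicle and 203 ± 79.0 with papain. Sparc and Postn followed in each group, between 26.96 and 51.6 CPM per kb on average, and their ranges overlapped with each other in each group. Only in the I3C vehicle group did the range of Thbs1 overlap with that of Sparc. The order of the other genes differed between the groups. On the I3C diet with vehicle, the levels per kb went down from Thbs2 (7.47) and Tnc (6.00) to Thbs3 (2.49), Tnxb (1.56), Fn1 (0.253), Spp1 (0.145) and Thbs4 (0.0417), where Thbs2 and Tnc, Thbs3 and Tnxb, Fn1 and Spp1, and Spp1 and Thbs4 overlapped. On the I3C diet with papain, Tnc (7.78 CPM per kb) came before Thbs2 (2.53), Tnxb (1.89), Thbs3 (0.914), Fn1 (0.453), Spp1 (0.356) and Thbs4 (0.0104), where Thbs2 and Tnxb, Thbs3 and Fn1, and Fn1 and Spp1 overlapped. On the AhR-poor diet with vehicle, Thbs2 (6.14), Tnc (5.31), Thbs3 (3.02), Tnxb (2.86) and Fn1 (2.63) each overlapped with the next in order, and Thbs4 (0.407) and Spp1 (0.330) overlapped below them. On the AhR-poor diet with papain, Spp1 (15.6), Fn1 (9.92), Thbs4 (9.34), Tnxb (8.15) and Tnc (6.84) stood in that order with overlapping neighbours, ahead of Thbs2 (3.62) and Thbs3 (2.37), whose ranges did not overlap. Among the 4 thrombospondins, Thbs1 made up 86.8% to 96.5% of the summed level per kb of a library. The share of Thbs4 was 1.996% to 7.27% in the AhR-poor papain libraries and at most 0.467% in the others.

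**Figure D2:**
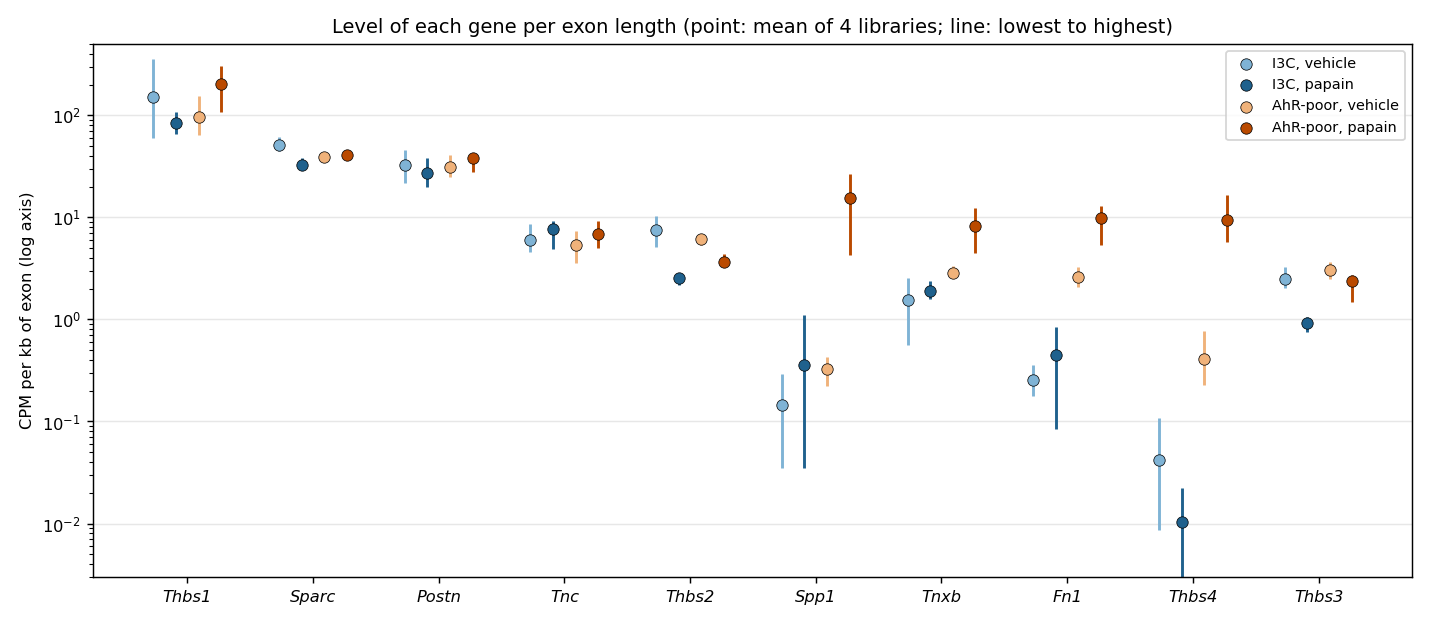
Level of each gene in CPM per kb of exon on a log axis, with a point at the mean of the 4 libraries of each group and a line from the lowest to the highest library. Thbs1, Sparc and Postn lead in each group, and the largest spans between groups are those of Thbs4, Spp1 and Fn1; the line of Thbs4 in the I3C papain group runs off the axis because 2 of its libraries had 0 counts.

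Thbs4 (ENSMUSG00000021702, chromosome 13, 92751590 to 92794818 on the minus strand of GRCm38) encodes a thrombospondin that forms pentamers and is best known from tendon and muscle. With vehicle on the I3C diet, its level was 0.0287, 0.0765, 0.354 and 0.0900 CPM in libraries T108, T109, T110 and T111, from 1, 3, 13 and 3 counts. With papain on the same diet, it was 0.0731, 0.0641, 0 and 0 CPM, from 3, 2, 0 and 0 counts. These levels were close to or below what 3 counts are worth in these libraries, apart from T110. Mice on the AhR-poor diet had 2.53, 0.979, 0.742 and 1.10 CPM of Thbs4 with vehicle, and 29.2, 20.7, 54.2 and 18.8 CPM with papain. The 4 AhR-poor vehicle libraries thus lay above the 8 I3C libraries, and the 4 AhR-poor papain libraries lay above the other 12. Over the summed counts of a group, scaled to library size, the AhR-poor papain group was 812 times the I3C papain group (4218 against 5 counts). It was 20.8 times the AhR-poor vehicle group. With vehicle, the AhR-poor group was 9.52 times the I3C group (201 against 20 counts). On the I3C diet, the papain group was 0.244 times the vehicle group (5 against 20 counts), and 13 of those 20 counts came from T110. These ratios of summed counts leave out the spread between replicates and rest on few counts on the I3C diet. Thbs4 was chosen on its diet difference, so they are a description and no test.

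The fibroblast marker sums given above were ordered as Thbs4 was between the diets. The tendon marker sums of the AhR-poor papain libraries were 30.5 CPM in T107, the library with the most Thbs4, and 14.8 CPM in T104. In T105 and T112 they were 6.999 and 7.45 CPM, within the range of the I3C vehicle libraries (6.15 to 10.4 CPM). Of the 6 tendon markers, 1 rose and 1 fell with papain on the AhR-poor diet, beside 6.04% and 2.42% of all genes. The part of either marker list in the level of Thbs4 was not tested. Over the 13026 genes with at least 1 CPM on average, the genes whose levels followed Thbs4 most closely in the 16 libraries were Lox, Sod3 and Ptgis, with a mean absolute difference of 0.59, 0.65 and 0.65 between the centred log2 (CPM + 0.1) values, against 2.66 for the median gene. Lox, a collagen-crosslinking enzyme, went from 0.0482 and 0.0221 CPM on the I3C diet to 0.670 and 11.1 CPM on the AhR-poor diet (means with vehicle and papain). Sod3, an extracellular superoxide dismutase, went from 0.211 and 0.259 to 1.99 and 26.4 CPM. Ptgis, the prostacyclin synthase, went from 0.00637 and 0.0382 to 0.509 and 14.4 CPM. The I3C means of Lox and Ptgis were below what 3 counts are worth in these libraries. Both genes reached 1 CPM on average only through the AhR-poor papain group. The centred values of Thbs4 itself lay 2.63 from 0 on average, so a gene with its diet pattern lies far nearer than the median gene. Since the set was chosen on the diet difference of Thbs4, nothing is read from these neighbours.

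Spp1 (ENSMUSG00000029304, chromosome 5, 104435118 to 104441050, plus strand) encodes osteopontin, a phosphoprotein that binds integrins and CD44 and is made by macrophages, bone cells and other cells. It had 0.708, 0.476, 0.371 and 0.617 CPM in the AhR-poor vehicle libraries and 31.4, 43.8, 20.5 and 6.99 CPM in the AhR-poor papain libraries (T104, T105, T107 and T112). The groups did not overlap. Spp1 rose with papain on this diet, by 5.56 on the log2 scale (SE 0.77, adjusted p = 8.47e-05 in edgeR's quasi-likelihood test over 22155 genes). The I3C libraries had 0.0574, 0.255, 0.163 and 0.480 CPM with vehicle and 1.80, 0.289, 0.0571 and 0.199 CPM with papain. These groups overlapped, and the difference of 1.36 (SE 1.0, adjusted p = 0.332 in edgeR) rested on T106, without which it was -0.41. Exons of Spp1 share 309 of 1648 bases with a predicted gene on the same strand, Gm42793, so reads could be split between them. Beside Spp1, 6 of 8 macrophage markers rose with papain on the AhR-poor diet and 2 of 8 on the I3C diet, against 6.04% and 3.69% of all genes. This was not particular to macrophage markers. On the AhR-poor diet, 7 of 7 neutrophil and 10 of 10 fibroblast markers also rose, and on the I3C diet 3 of 7 and 0 of 10. The part of these markers in the level of Spp1 was not tested.

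Fn1 (ENSMUSG00000026193, chromosome 1, 71585520 to 71653200, minus strand) encodes fibronectin, which cells assemble into fibrils through integrins and on which other matrix proteins are laid down. Its levels were 3.04, 2.57, 4.13 and 2.07 CPM in the I3C vehicle libraries and 9.74, 8.56, 1.86 and 0.995 CPM in the I3C papain libraries. With papain, T106 and T113 thus stood above each vehicle library on this diet, and T114 and T115 below each of them. Fn1 on the AhR-poor diet had 35.3, 24.2, 25.6 and 37.9 CPM with vehicle and 114.1, 138, 149 and 62.4 CPM with papain. The latter groups did not overlap, but the difference of 1.91 (SE 0.51, adjusted p = 0.0101 in edgeR) missed the threshold of 0.01. It passed in DESeq2 (adjusted p = 0.00274), and over the alternatives with the same threshold the adjusted p lay between 0.00156 and 0.0334. The difference on the I3C diet was 0.83 (SE 0.59, adjusted p = 0.311 in edgeR).

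Tnxb (ENSMUSG00000033327, chromosome 17, 34670535 to 34719815, plus strand) encodes tenascin-X, a partner of dermal collagen fibrils whose loss makes skin hyperextensible. It had 41.1, 34.2, 31.6 and 32.7 CPM in the AhR-poor vehicle libraries and 88.8, 149.9, 104.8 and 54.3 CPM in the AhR-poor papain libraries, which did not overlap. Tnxb rose with papain on this diet by 1.51 (SE 0.38, adjusted p = 0.00765 in edgeR). This call was lost without any 1 of T100, T101, T102, T103, T104, T105 and T107, with an adjusted p of up to 0.0256 and a difference of 1.24 without T105. Levels on the I3C diet were 30.9, 14.0, 24.5 and 6.81 CPM with vehicle and 24.2, 19.2, 28.9 and 20.2 CPM with papain, with overlap and a difference of 0.28 (SE 0.38, adjusted p = 0.631 in edgeR). On the AhR-poor diet, the fibroblast marker sums, like Fn1 and Tnxb, were higher in each papain library than in each vehicle library. Each of the 10 markers rose with papain there, beside 6.04% of all genes. The I3C libraries were not ordered alike. With vehicle, T111 had the highest marker sum but the lowest Fn1 and Tnxb. With papain, T106 and T113 had the higher sums and more Fn1, while T114 had the lowest sum and the most Tnxb. On the I3C diet, none of these markers rose and 1 fell, beside 3.69% and 5.29% of all genes. Their part in the levels of Fn1 and Tnxb was not tested.

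**Figure D3:**
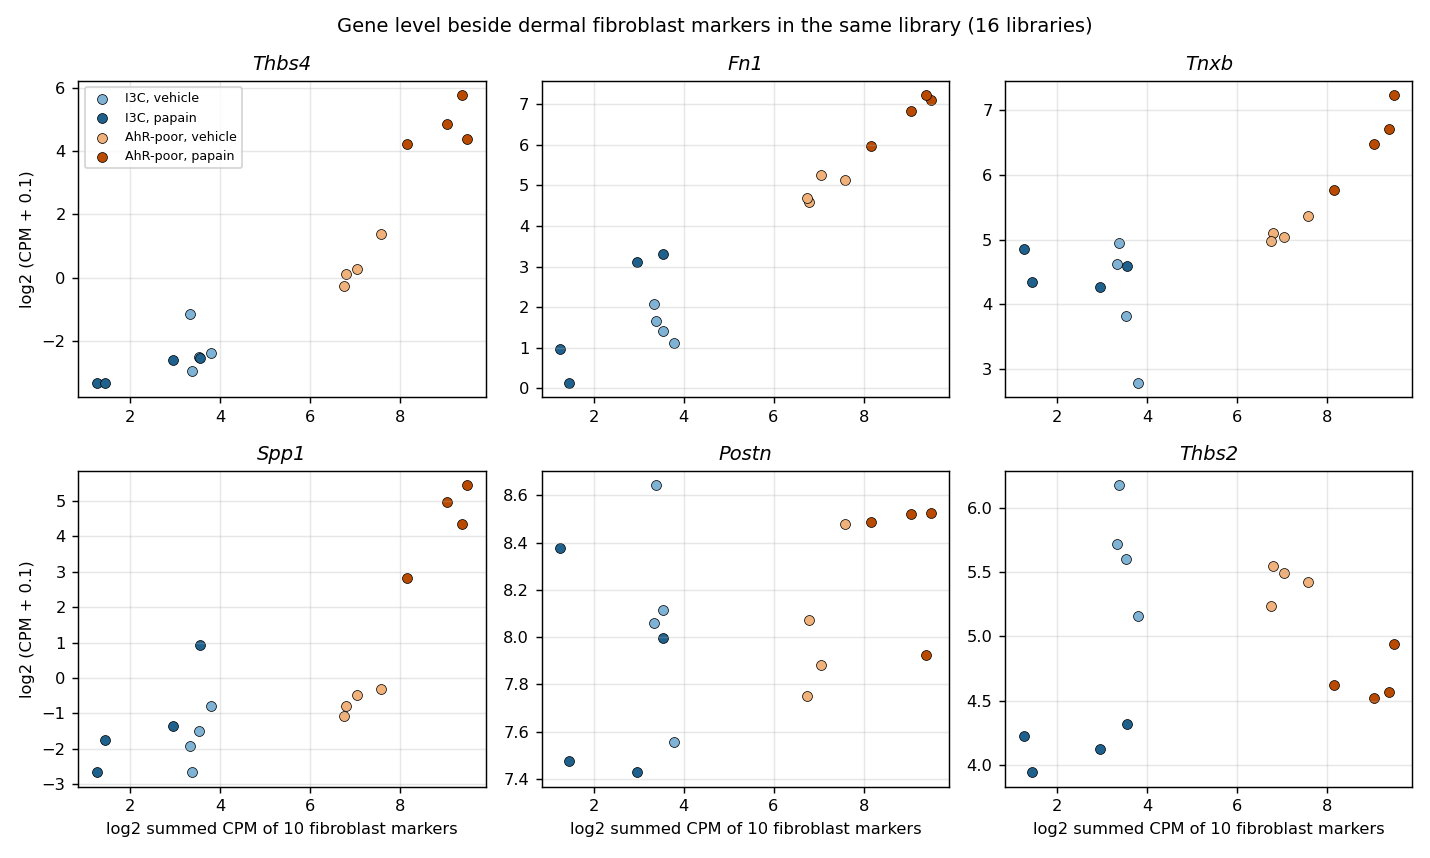
Level of 6 genes, as log2 (CPM + 0.1), against the log2 summed CPM of 10 dermal fibroblast markers in the same library, with 1 point for each of the 16 libraries, coloured by diet and treatment. Thbs4, Fn1 and Tnxb stand higher in the AhR-poor libraries, which hold marker sums of 107.8 to 718 CPM, and Spp1 stands highest in the AhR-poor papain libraries. Postn takes similar levels at low and high marker sums. Thbs2 in the AhR-poor libraries lies within its range in the I3C libraries, where it is lower with papain.

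Upstream sequence is shown for Thbs4, Spp1 and Tnxb, which had their highest levels in the AhR-poor papain libraries. Each entry holds the 250 bases before the RefSeq transcript start in GRCm38.p6, written 5′ to 3′ on the strand of the gene: chr13:92794819-92795068 on the minus strand for Thbs4, chr5:104434861-104435110 on the plus strand for the first of the 2 starts of Spp1, and chr17:34670285-34670534 on the plus strand for Tnxb. Capitals mark matches, on either strand, to GCGTG (core of the AhR response element, written CACGC on the other strand), TGANTCA (AP-1) and CAGAC (SMAD box, written GTCTG on the other strand). No marked match overlaps another.
Thbs4: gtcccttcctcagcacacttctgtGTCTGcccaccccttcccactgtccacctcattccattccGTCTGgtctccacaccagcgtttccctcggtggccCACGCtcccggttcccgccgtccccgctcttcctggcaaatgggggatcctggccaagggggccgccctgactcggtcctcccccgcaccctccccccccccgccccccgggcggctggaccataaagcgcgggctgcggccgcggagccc
Spp1: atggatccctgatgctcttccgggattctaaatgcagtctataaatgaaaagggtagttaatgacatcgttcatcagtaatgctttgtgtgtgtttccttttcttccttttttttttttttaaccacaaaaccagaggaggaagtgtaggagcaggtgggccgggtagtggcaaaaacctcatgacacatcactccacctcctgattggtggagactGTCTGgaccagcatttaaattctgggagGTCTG
Tnxb: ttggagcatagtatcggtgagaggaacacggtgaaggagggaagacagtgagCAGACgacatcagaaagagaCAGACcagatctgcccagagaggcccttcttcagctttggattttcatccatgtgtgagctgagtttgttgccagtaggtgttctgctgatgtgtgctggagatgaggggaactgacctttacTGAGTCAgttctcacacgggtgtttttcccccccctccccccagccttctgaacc
The core GCGTG was found in 1 of the 8 genes of the set that had an entry, Thbs4, where its first base lies 151 bases before the start (position -151), and it was found in 28.2% of all 32851 RefSeq promoters over the same length (1 of the 11 promoters of the 8 genes). TGANTCA was found in 1 of the 11 promoters, that of Tnxb at position -55, against 6.75% of all promoters. CAGAC was found in 8 of the 11 promoters, against 42.2% of all promoters, and Thbs3 was the 1 gene without a match. The upstream bases of Thbs4 were 70.8% G or C, and those of Spp1 and Tnxb 43.6% and 52.4%. A match describes these letters alone. No entry was given for Thbs1 and Fn1.

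Thbs2 and Thbs3 went the other way on the I3C diet. Thbs2 (ENSMUSG00000023885, chromosome 17, 14665500 to 14694235, minus strand), like Thbs1 an inhibitor of vessel growth, had 72.4, 48.6, 52.6 and 35.6 CPM in the I3C vehicle libraries and 19.8, 17.3, 18.6 and 15.2 CPM in the I3C papain libraries. It fell by 1.56 on the log2 scale (SE 0.17, adjusted p = 1.25e-06 in edgeR). It had 42.9, 46.6, 37.6 and 44.9 CPM with vehicle and 22.8, 30.6, 23.6 and 24.4 CPM with papain on the AhR-poor diet, without overlap. That difference of -0.76 (SE 0.16, adjusted p = 0.00151 in edgeR) passed the threshold on p but not the minimum of 1 on the log2 scale. Thbs3 (ENSMUSG00000028047, chromosome 3, 89215180 to 89226837, plus strand), a pentameric thrombospondin known from cartilage and bone, had 11.8, 10.7, 9.82 and 15.7 CPM with vehicle and 5.04, 3.62, 5.14 and 3.83 CPM with papain on the I3C diet. It fell by 1.44 (SE 0.20, adjusted p = 1.39e-05 in edgeR). Thbs3 on the AhR-poor diet had 17.7, 12.1, 13.7 and 14.9 CPM with vehicle and 12.7, 12.8, 13.1 and 7.10 CPM with papain, with overlap and a difference of -0.35 (SE 0.19, adjusted p = 0.169 in edgeR). Exons of Thbs3 share 318 of 4823 bases with Mtx1 on the opposite strand, and the strand setting of the counting is not given in the sources used here. Thbs1, Tnc and Fn1 likewise share 208, 176 and 292 exonic bases with genes on the opposite strand. Beside the falls of Thbs2 and Thbs3, the summed tendon markers on the I3C diet were 6.15 to 10.4 CPM with vehicle and 1.09 to 1.46 CPM with papain. Of these markers 1 of 6 fell, as did 1 of 10 fibroblast markers, beside 5.29% of all genes. Their part in these falls was not tested.

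Thbs1 (ENSMUSG00000040152, chromosome 2, 118111876 to 118127133, plus strand) had 2144, 644, 509 and 365 CPM in the I3C vehicle libraries and 650, 485, 503 and 394 CPM in the I3C papain libraries. T108 was more than 3 times as high as any other library of its group, and it also had the highest sum of basal keratinocyte markers of the 16 libraries (36309 CPM) and the lowest sum of suprabasal markers of its group (24028 CPM). The difference of -0.85 (SE 0.51, adjusted p = 0.223 in edgeR) was 0.0058 without T108. Thbs1 on the AhR-poor diet had 939, 489, 497 and 392 CPM with vehicle and 1208, 1830, 1240 and 656 CPM with papain. T112 lay below the highest vehicle library, T100, so the groups overlapped, and the difference of 1.09 (SE 0.51) did not pass the test (adjusted p = 0.121 in edgeR). The genes that followed Thbs1 most closely over the 16 libraries were H2-Q4, Ifi27l2a and Bcl2l11, with a mean absolute difference of 0.31, 0.32 and 0.32 against 0.69 for the median gene.

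Sparc (ENSMUSG00000018593, chromosome 11, 55394500 to 55423183, minus strand) encodes a collagen-binding glycoprotein. It had 234, 188, 168 and 193 CPM in the I3C vehicle libraries and 120, 146, 113.6 and 110 CPM in the I3C papain libraries. The groups did not overlap, and the difference of -0.68 (SE 0.10, adjusted p = 2.85e-05 in edgeR) was below the fold minimum. With 147, 137, 167 and 140 CPM for vehicle and 158, 161, 156 and 148 CPM for papain, no such difference was detected on the AhR-poor diet (0.08, SE 0.10, adjusted p = 0.609 in edgeR).

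Postn and Tnc did not pass either papain comparison. Postn (ENSMUSG00000027750, chromosome 3, 54361109 to 54391037, plus strand) encodes periostin, which binds collagen and integrins and is a known product of allergic skin. Its levels went from 188 to 400 CPM with vehicle and from 172 to 333 CPM with papain on the I3C diet, and from 215 to 357 CPM and from 243 to 368 CPM on the AhR-poor diet. The differences were -0.27 (SE 0.26, adjusted p = 0.460 in edgeR) and 0.31 (SE 0.26, adjusted p = 0.391). Tnc (ENSMUSG00000028364, chromosome 4, 63959785 to 64047015, minus strand) encodes tenascin-C, which appears at wound edges. It took levels from 35.2 to 66.5 CPM and from 38.3 to 71.0 CPM on the I3C diet, and from 27.8 to 56.8 CPM and from 39.0 to 71.5 CPM on the AhR-poor diet, with differences of 0.38 (SE 0.27, adjusted p = 0.313 in edgeR) and 0.37 (SE 0.27, adjusted p = 0.334). The levels of the 4 groups overlapped for both genes. Col8a1, Tns3 and C630043F03Rik followed Postn most closely over the 16 libraries (mean absolute differences of 0.19, 0.20 and 0.21, against 0.39 for the median gene), and Gm6611, Mt1 and 2610035D17Rik followed Tnc (0.19, 0.19 and 0.20, against 0.41). For genes as even across the groups as these, many genes lie close.

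Over the set, papain on the AhR-poor diet gave 2 rises (Spp1 and Tnxb) and no fall among the 9 genes tested, where 6.04% of all genes rose and 2.42% fell. The log2 difference of Thbs4 in this comparison was 4.52 (SE 0.47). The median difference of the 10 genes, Thbs4 among them, was 0.73, against -0.0044 for all genes. Among the 9 without Thbs4, the middle difference was that of Tnc, at 0.37. Papain on the I3C diet gave 2 falls (Thbs2 and Thbs3) and no rise among the 9, where 5.29% of all genes fell and 3.69% rose. The median was -0.47 for the 10 genes against -0.04 for all genes, and the middle difference of the 9 was that of Postn, at -0.27. The papain and vehicle libraries did not overlap for 5 of the 10 genes on the AhR-poor diet (Thbs2, Thbs4, Spp1, Fn1 and Tnxb) and for 3 on the I3C diet (Thbs2, Thbs3 and Sparc), beside 33.0% and 33.4% of all genes. Without Thbs4, each of these 7 comparisons reached p = 0.0286 in an exact permutation test (two-sided, on log2 values of CPM + 0.1), which is the smallest p that 4 libraries against 4 can give. Any comparison without overlap gives this p here, so it adds nothing to the lack of overlap. Adjusted over the 18 tests of this kind, these p-values became 0.0735.

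**Figure D4:**
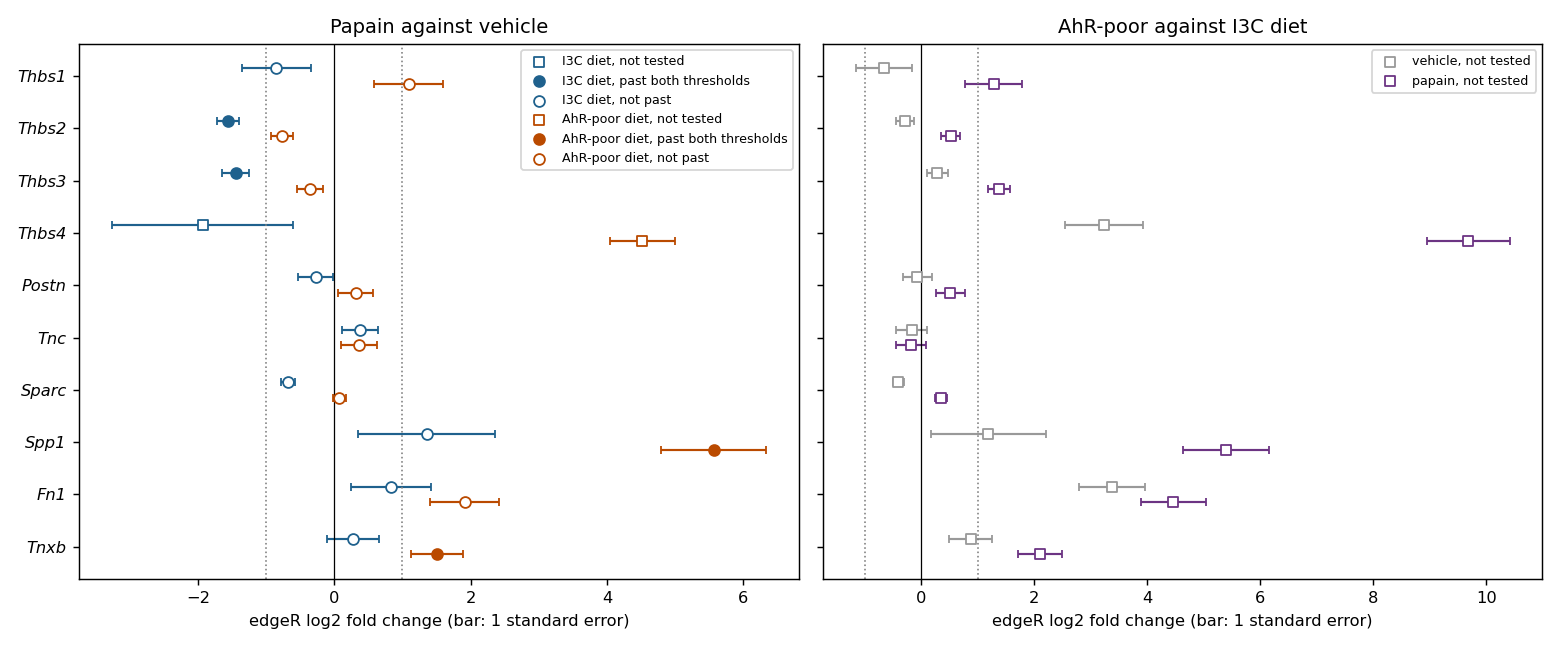
Log2 fold change of each gene from edgeR with a bar of 1 standard error, for papain against vehicle on each diet (left) and for AhR-poor minus I3C with each treatment (right). Filled points passed an adjusted p of 0.01 and the dotted lines at a log2 fold change of 1 or -1; points of Thbs4 and of the right panel are open squares, since they were not tested. On the left, Spp1 and Tnxb are filled to the right for the AhR-poor diet, and Thbs2 and Thbs3 to the left for the I3C diet.

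The differences between diets share their libraries with the papain comparisons and are given without a test. With vehicle, the libraries of the diets did not overlap for Thbs4, Fn1 and Tnxb, which were higher on the AhR-poor diet, and for Sparc, which was lower there, which makes 4 of 10 genes beside 8.12% of all genes. Fn1 had 10.4 times the mean level (log2 difference 3.37, SE 0.58) and Tnxb 1.83 times (0.87, SE 0.38). Sparc had 0.754 times the mean level (-0.41, SE 0.10). As a description of these values alone, the size and spread of Fn1 put it past both thresholds of the papain comparisons, where 1.59% of all genes lay in that direction, and it lay short of them without any 1 of T100, T103, T108, T109, T110 and T111. With papain, the diets did not overlap for 8 of the 10 genes, with Postn and Tnc as the exceptions, beside 24.9% of all genes. Each of the 8 was higher on the AhR-poor diet. The mean level was 43.7 times as high for Spp1 (5.39, SE 0.76), 21.9 times for Fn1 (4.46, SE 0.58), 4.30 times for Tnxb (2.11, SE 0.39), 2.59 times for Thbs3 (1.37, SE 0.20) and 2.43 times for Thbs1 (1.28, SE 0.51). Thbs2 and Sparc differed by 0.52 (SE 0.16) and 0.35 (SE 0.10). In the same descriptive sense, Thbs3, Thbs4, Spp1, Fn1 and Tnxb lay past both thresholds, as did 7.15% of all genes in that direction. Since the set was chosen on the difference between diets, these counts are no test of it and nothing is read from them.

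Whether the response to papain differed between the diets was tested as the interaction of diet and papain, which uses the same libraries again. None of the 9 genes tested passed an adjusted p of 0.01 in edgeR, while 4 genes of the whole table passed both this and the fold minimum (0.0181%). DESeq2 gave 1 call among the 9, Thbs3 (adjusted p = 0.00981). It called far more genes than edgeR over the whole table, with 202 higher and 5 lower of 22155. At an unadjusted p under 0.05, 6 of the 9 genes had a response that was higher on the AhR-poor diet, beside 7.41% of all genes. Since the interaction is the diet difference with papain minus that with vehicle, on which the set was chosen, nothing is read from this count. The 6 genes were Sparc with a difference of 0.76 between the log2 responses (SE 0.14, adjusted p = 0.0307 in edgeR), Thbs3 with 1.09 (SE 0.27, adjusted p = 0.0914), Thbs2 with 0.80 (SE 0.23, adjusted p = 0.151), Spp1 with 4.21 (SE 1.37, adjusted p = 0.227), Thbs1 with 1.94 (SE 0.72, adjusted p = 0.277) and Tnxb with 1.23 (SE 0.54, adjusted p = 0.345). Fn1 and Postn differed by 1.08 (SE 0.77) and 0.58 (SE 0.36), with adjusted p of 0.575 and 0.509 in edgeR. For Tnc, the difference of -0.01 (SE 0.38, adjusted p = 0.9999) had no settled sign, as it was just above 0 with RLE factors, library size only and DESeq2. Thus a call on 1 diet and not on the other, as for Spp1 and Thbs2, was not shown here to be a difference between the diets at the threshold used. For Thbs3, 1 of the 16 edgeR fits with a library left out passed, that without T112 (adjusted p = 0.00782). The adjusted p was up to 0.206 in the other fits. Without T112, 95 genes of the whole table were called for the interaction, so that fit called more genes in general.

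The genes around these proteins were read from 3 further lists. These lists were chosen with earlier results of these data known. Their counts beside the shares of all genes are therefore a description, and the p-values of the genes named from them do not allow for that choice. Among 23 other matricellular genes, 19 had enough counts, and Ccn6, Ibsp, Dmp1 and Mepe did not. On the AhR-poor diet, 5 of the 19 rose with papain and none fell (median 0.76), beside the 6.04% and 2.42% of all genes. The 10 of 10 fibroblast markers that rose in the same libraries stand beside these and the following counts on the AhR-poor diet, and their part in them was not tested. The 5 matricellular genes that rose included Tnfaip6, a hyaluronan-binding protein of inflamed tissue, at 7.24 ± 3.13 against 0.935 ± 0.357 CPM (SD, n = 4). Its log2 difference was 2.96 (SE 0.33, adjusted p = 2.13e-06 in edgeR). Ccn5 and Ccn3, members of the CCN family, rose by 2.59 (SE 0.34, adjusted p = 1.17e-05) and 2.26 (SE 0.39, adjusted p = 3.20e-04). With papain on the I3C diet, 5 of the 19 fell and none rose (median -0.39), beside the 5.29% and 3.69% of all genes. Ccn2, the connective tissue growth factor, fell from 12.8 ± 3.31 to 3.93 ± 1.73 CPM (-1.70, SE 0.32, adjusted p = 6.58e-04 in edgeR). Spock2, a proteoglycan related to Sparc, fell from 7.43 ± 1.18 to 2.91 ± 1.31 CPM (-1.35, SE 0.25, adjusted p = 2.98e-04). Tnr, a tenascin of nervous tissue, passed as a fall on 12 counts in the vehicle libraries against 0 in the papain libraries, too few for a fold.

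Among 20 receptors of matricellular proteins, 4 rose on the AhR-poor diet (median 0.68), 5 rose on the I3C diet (median 0.32) and none fell on either, beside rises of 6.04% and 3.69% of all genes. Itga5, a subunit of the main fibronectin receptor, rose from 13.3 ± 2.21 to 61.7 ± 17.5 CPM on the AhR-poor diet (2.21, SE 0.30, adjusted p = 5.42e-05 in edgeR) and from 14.9 ± 5.18 to 37.7 ± 13.6 CPM on the I3C diet (1.33, SE 0.29, adjusted p = 0.00230). On the AhR-poor diet, Cacna2d1, a calcium channel subunit that binds thrombospondins, rose by 1.69 (SE 0.37, adjusted p = 0.00165) and the integrin Itgb3 by 1.68 (SE 0.30, adjusted p = 2.59e-04). Stab1, a scavenger receptor that takes up Sparc, rose from 21.2 ± 0.334 to 88.2 ± 25.9 CPM on the I3C diet (2.06, SE 0.16, adjusted p = 5.04e-08 in edgeR) and Itgb6, an epithelial integrin, by 1.17 (SE 0.31, adjusted p = 0.00848). Among 12 enzymes and partners of matrix assembly, 7 rose on the AhR-poor diet (median 1.499) and 2 on the I3C diet (median -0.14), beside the same 6.04% and 3.69%, and none fell on either. On the I3C diet, none of the 10 fibroblast markers rose. Lox, named above beside Thbs4, rose on the AhR-poor diet by 4.04 (SE 0.41, adjusted p = 1.42e-06). Tgm2, a transglutaminase that crosslinks fibronectin, rose from 7.49 ± 2.30 to 64.8 ± 38.0 CPM (3.12, SE 0.60, adjusted p = 0.00116), and Fbn1, the main protein of microfibrils, by 2.02 (SE 0.46, adjusted p = 0.00357). On the I3C diet, Ltbp1, which holds latent TGF-β in the matrix, rose from 12.6 ± 2.59 to 59.5 ± 9.72 CPM (2.24, SE 0.15, adjusted p = 4.18e-09 in edgeR), and the collagen Col12a1 from 55.7 ± 17.0 to 158.7 ± 34.6 CPM (1.51, SE 0.24, adjusted p = 1.40e-04).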

How the data were processed

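Libraries from 16 samples of epidermal cells were made with the TruSeq Stranded mRNA kit and read as pairs. The authors mapped the reads to mm10 with STAR and deposited raw, unnormalized counts per gene. The counting tool, annotation release and strand setting are not given in the sources used here. Of 50600 identifiers, 50376 matched a symbol in GENCODE M21 (GRCm38), which also gave positions and exon lengths. Groups were taken from the labels, and cage and sequencing unit were not modelled.

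The 22155 genes that reached 10 counts over the 16 libraries were fitted in edgeR 4.0.16 under R 4.3.3 with TMM factors, a mean for each of the 4 groups and the robust quasi-likelihood F test. Calls needed an adjusted p (Benjamini-Hochberg) under 0.01 and a change of more than 1 on the log2 scale in either direction. CPM were scaled with TMM factors. Single genes were also compared by exact permutation (two-sided, on log2 values of CPM + 0.1). As alternatives, DESeq2 1.42.0 (the tool of the study), scaling by RLE factors or library size alone, 3 other count filters (filterByExpr, a minimum of 1 count in total, a minimum of 10 counts per library), the compared libraries alone, an adjusted p below 0.05, no fold minimum and leaving out each library were tried. The 10 genes, the 3 lists of related genes and the 13 marker lists were chosen with earlier results of these data known. From each related list, at most 3 called rises and 3 called falls per papain comparison were named by size. Promoter sequences are from RefSeq (GRCm38.p6). The replicates are biological ones per the methods, which take the single animal as the unit of animal experiments. Totals of 22500821 to 51844375 counts make 3 counts worth at most 0.133 CPM.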

Additional observations from a re-analysis of the deposited data

Results flagged for a closer look

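Over the 40 groups formed by 10 genes and 4 groups of 4 libraries, 4 held a library far from the other 3 by Dixon's criterion at the 95% level, where chance gives about 1 in 20. In the I3C vehicle group, Thbs1 was far higher in T108, at 2144 CPM. In the I3C papain group, Spp1 was far higher in T106, at 1.80 CPM. In the AhR-poor papain group, Thbs3 was far lower in T112, at 7.10 CPM, and Postn was far lower in T107, at 243 CPM. The effect of leaving out T108, T106 and T112 is given beside the genes concerned, and without T107 the papain difference of Postn did not pass either.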

How the results depend on the processing

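No paired analysis was possible because no replicate code of the labels occurs in more than 1 group. On the AhR-poor diet, 3 genes passed with papain (Thbs4, Spp1 and Tnxb, the first not tested), and 2 to 4 over the 25 alternatives. Tnxb was lost without any 1 of 7 libraries, which left Spp1 alone among the genes tested, and Fn1 was added in others. On the I3C diet, Thbs2 and Thbs3 passed in each alternative, joined by Sparc without a fold minimum (3 genes). The diet differences chose the set, so their counts are a description. With vehicle, 1 gene (Fn1) lay past the thresholds, and 2 with filterByExpr, DESeq2, the compared libraries alone or an adjusted p below 0.05 (0 to 2 when 1 library was left out). With papain, 5 did, and 3 with at least 10 counts in every library, where Thbs4 and Spp1 had too few counts. For the interaction, 0 were called, 2 with DESeq2 (Thbs3, and Thbs4 as a description) and 0 to 1 when 1 library was left out. Signs turned for differences near 0 or held by 1 library. When 1 library was left out, the papain difference on the I3C diet was -1.10 to 0.0058 for Thbs1 and -0.41 to 1.91 for Spp1. The diet difference with vehicle was -0.99 to 0.19 for Thbs1, -0.24 to 0.14 for Postn and -0.38 to 0.050 for Tnc. The interaction of Tnc was -0.23 to 0.20, and 0.0075, 0.062, 0.026 and 0.0080 with RLE factors, library size only, at least 10 counts in every library and DESeq2. Over all genes, DESeq2 called 202 higher and 5 lower in the interaction, against 4, and 589 higher between diets with vehicle, against 352. With at least 10 counts in every library, the rises with papain on the AhR-poor diet were 651 against 1338, and the higher genes between diets were 58 with vehicle and 556 with papain, against 352 and 1583. Library size alone moved the median of all genes between diets with papain to 0.11. Fn1 and Tnxb lie near the threshold on the AhR-poor diet: Tnxb was lost when the count filter was 1 in total (adjusted p = 0.0127 in edgeR). Depth limits Thbs4 and Spp1 on the I3C diet, where counts were few. Causes of these shifts were not tested.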
